A study of Homo sapiens with 6 samples.

Results

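The long noncoding and antisense RNAs that LNCaP cells expressed were taken by their gene symbols. A gene was included if its symbol was that of a long intergenic RNA (LINC with a number), an antisense transcript (ending in AS with a number), a divergent transcript (ending in DT), or a host gene of small nucleolar RNAs (SNHG) or of microRNAs (MIR...HG), or if it was PSLNR, MALAT1, NEAT1, GAS5 or DANCR. Each gene was read from the brightest probe set that names it alone, and it was kept when its mean signal over the 6 arrays was at least 40. Of 19775 genes with such a probe set, 1863 matched by symbol, and 399 of these (21.4%) were kept: 217 antisense transcripts, 95 LINC RNAs, 68 divergent transcripts, 10 microRNA hosts, 5 snoRNA hosts, and PSLNR, MALAT1, GAS5 and DANCR. NEAT1 and 68 other matched genes, SNHG1 and SNHG12 among them, are on the array only in probe sets that name several genes and were not analysed here. The members were thus chosen by their measured mean signal, so the levels describe them and were not tested. PSLNR was put in the rule with its rise already known, and its values are given as a description. On the inner side of the limit lay PDCD4-AS1 (mean signal 40.04), ZBTB11-AS1 (40.1) and SEC24B-AS1 (40.14), and on the outer side LAMA4-AS1 (39.9), SLC16A1-AS1 (39.6) and PTOV1-AS2 (39.6).

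LNCaP is an established human prostate cancer line, derived from a lymph node metastasis, that carries the androgen receptor and needs androgen signalling for growth. All 6 cultures spent 3 days in phenol red-free RPMI with 10% charcoal/dextran-stripped serum, which removes steroids. In the DHT group, 3 cultures then received 100 nM dihydrotestosterone, the androgen made from testosterone in the prostate, for 48 h, and 3 cultures were the controls, whose vehicle the labels do not name. Each culture gave 1 array. The p-values rest on the spread between these biological replicates and on a variance that limma pools over probe sets of similar signal. The number of replicates limits the precision.

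Long noncoding RNAs are transcripts without a known protein product, spliced and polyadenylated in most cases, and many are kept in the nucleus. Antisense transcripts are made from the opposite strand of a gene, divergent ones start close to a gene's promoter and run the other way. In snoRNA host genes the introns carry the small nucleolar RNAs that guide modification of ribosomal RNA, while the spliced host transcript is in many cases destroyed by nonsense-mediated decay. The androgen receptor is a transcription factor that DHT activates. It binds DNA at paired copies of the half-site AGAACA, mostly in enhancers away from promoters.

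Promoter windows of 3 RNAs that rose are shown first, from RefSeq on GRCh38.p14. They are written 5′ to 3′ in the direction of transcription, with positions counted from the annotated start (the first transcribed base is 1 and the base before it -1). Capitals mark the androgen receptor half-site (AGAACA or its reverse complement TGTTCT) and the NF-Y motif (CCAAT or ATTGG), both searched on both strands. The window of PSLNR, the member with the largest rise, is at chr22:15740643-15740942 (plus strand, bases -250 to 50), with a half-site at -231 and an NF-Y motif at -140. MALAT1, the brightest member, has 2 annotated starts, and the window of the second, at chr11:65498795-65499094 (plus strand), has a half-site at -41. The last of the 3 windows of FGD5-AS1 lies at chr3:14947456-14947755 (minus strand), with a half-site at -82 and an NF-Y motif at -20. All 3 windows shown hold a half-site, and the other windows of MALAT1 and FGD5-AS1 are not printed. They are not typical: 4 of 9 rising RNAs with a window held a half-site, and 11.7% of the members against 17.5% of all genes.
PSLNR: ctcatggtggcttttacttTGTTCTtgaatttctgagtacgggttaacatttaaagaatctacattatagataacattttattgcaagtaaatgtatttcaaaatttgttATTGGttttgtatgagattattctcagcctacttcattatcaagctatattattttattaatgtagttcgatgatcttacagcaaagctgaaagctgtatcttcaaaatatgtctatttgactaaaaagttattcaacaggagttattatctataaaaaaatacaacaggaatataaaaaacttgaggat
MALAT1: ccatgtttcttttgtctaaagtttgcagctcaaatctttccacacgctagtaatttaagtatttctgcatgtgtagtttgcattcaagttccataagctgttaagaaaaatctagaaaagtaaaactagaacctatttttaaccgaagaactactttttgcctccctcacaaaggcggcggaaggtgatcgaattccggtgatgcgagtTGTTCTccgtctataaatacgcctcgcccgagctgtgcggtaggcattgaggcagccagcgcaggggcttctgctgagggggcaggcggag
FGD5-AS1: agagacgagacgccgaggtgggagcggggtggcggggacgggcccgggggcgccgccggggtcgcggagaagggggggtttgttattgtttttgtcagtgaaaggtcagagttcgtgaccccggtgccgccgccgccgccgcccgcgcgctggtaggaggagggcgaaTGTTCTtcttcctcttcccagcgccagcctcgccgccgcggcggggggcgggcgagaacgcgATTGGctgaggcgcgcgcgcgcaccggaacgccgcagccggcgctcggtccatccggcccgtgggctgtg

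For the pairs described further on, the bases between or around neighbouring starts are printed. The printed bases hold no half-site or NF-Y motif, but the whole window of 300 bases of FAM111A-DT, of which a part is shown, has an NF-Y motif. FAM111A-DT and its partner FAM111A are transcribed away from each other, and the stretch at chr11:59142759-59142856 (minus strand, bases -48 to 50 of FAM111A-DT) covers the gap of 47 bases between the annotated genes. SNHG4 and MATR3 share 1 annotated start, and its upstream side is at chr5:139273851-139274100 (plus strand, bases -250 to -1). The window of NETO1-DT at chr18:72868138-72868437 (plus strand, bases -250 to 50) is the first of its 2.
FAM111A-DT: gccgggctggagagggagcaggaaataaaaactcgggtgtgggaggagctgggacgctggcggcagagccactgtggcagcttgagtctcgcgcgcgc
SNHG4: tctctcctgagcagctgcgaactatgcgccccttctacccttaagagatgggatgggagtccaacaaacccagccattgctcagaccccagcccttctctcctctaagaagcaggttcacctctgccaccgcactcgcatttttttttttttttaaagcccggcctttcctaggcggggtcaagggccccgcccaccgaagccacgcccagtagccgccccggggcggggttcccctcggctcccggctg
NETO1-DT: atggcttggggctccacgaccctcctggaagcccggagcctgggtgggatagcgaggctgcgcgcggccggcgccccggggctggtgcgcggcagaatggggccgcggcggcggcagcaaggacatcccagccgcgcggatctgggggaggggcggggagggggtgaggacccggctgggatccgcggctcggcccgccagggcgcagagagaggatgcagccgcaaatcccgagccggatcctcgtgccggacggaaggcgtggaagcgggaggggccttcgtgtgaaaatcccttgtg

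Of the 399 RNAs, 315 had a window of 300 bases in the promoter table, which holds 35097 windows of 27305 genes. Their windows had a median GC content of 64.3%, against 58.7% over all windows. The half-site was in at least 1 window of 37 of the 315 (11.7%) and of 17.5% of all genes (14.8% of windows). Among the RNAs that rose, 9 were in the table and 4 held it (PSLNR, MALAT1, FGD5-AS1 and DHRS4-AS1), and among 16 that fell 1 did (MIR99AHG). PSLNR, counted here, was in the rule with its rise known. The full element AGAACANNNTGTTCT was in 0 of the 315 and in 1 window of the table. The FOXA motif TGTTTAC was in 2.86% of the 315 and 4.19% of all genes, and the NF-Y motif CCAAT in 38.7% and 39.7%. A match is a string of letters and not a binding site, genes with several annotated starts have more windows to match in, and no binding was measured.

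The deposited signals had a mean of 100.03 on every array after trimming 2% at both ends, and array medians ran from 25.7 to 30.03. Markers of luminal prostate cells fitted the label: 8 of 10 were tested, and KLK2, TMPRSS2 and KLK3 rose by 4.07, 3.08 and 2.04 on the log2(signal + 16) scale (limma adjusted p = 2.84e-10, 4.9e-08 and 4.03e-07), while 2 fell, KRT8 by 0.43 (0.00566). Of 3 basal epithelium markers 0 were tested, and the summed signal of the tested leukocyte marker ran from 29.3 to 37.99 in the controls and from 9.95 to 22.2 with DHT. For the 2 endothelium markers the sum ran from 179 to 203 and from 199 to 261. For the 3 tested fibroblast markers it ran from 259.7 to 296 and from 198 to 231, and COL1A1 fell by 0.54 (limma adjusted p = 0.0183). The 3′ to 5′ signal ratio of the control probe sets, a measure of RNA integrity and labelling, was 0.904 ± 0.044 in the controls and 1.06 ± 0.05 with DHT for GAPDH, and 1.37 ± 0.05 and 1.77 ± 0.07 for ACTB (SD, n = 3 each), so the DHT arrays were all higher. The part of this shift and of the marker levels in the results below was not tested.

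Most of the 399 RNAs did not change detectably with DHT, and those that did changed by less than 2-fold on the log2(signal + 16) scale, apart from PSLNR. The question put by the 2 groups was which noncoding transcripts follow the return of androgen to steroid-deprived cells. At an adjusted p of 0.05 in limma, taken over 14269 tested genes, 12 RNAs rose (3.01%), of which LINC00668 had a control mean under the limit of 40, and 21 fell (5.26%). Over all tested genes 7.02% rose and 6.03% fell (13.0% in either direction), and among the 10960 genes at a mean signal of at least 40 the shares were 8.8% and 7.58% (16.4% together). The called share of the noncoding RNAs (8.27%) was thus below both backgrounds. Without PSLNR, which was in the rule with its rise known, 11 of 398 rose (2.76%) and 21 fell (5.28%). The 3 DHT arrays lay above all 3 controls for 47 RNAs (11.8%) and below them for 45 (11.3%), against 17.0% and 14.0% of all genes (19.5% and 16.5% of those at 40 or above), and all 33 called RNAs were of this kind. At an unadjusted p below 0.05 there were 76 of the 399 RNAs. This was a smaller share than the 3718 of 14269 tested genes (26.1%) and the 3416 of 10960 at 40 or above (31.2%). The median log2 fold change of the 399 was 0.02 (quartiles -0.17 and 0.18), and that of all tested genes 0.02.

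These counts depend on the arrays and on the scale. Without control replicate 1, 2 or 3 the falls numbered 9, 12 and 8, and without DHT replicate 1, 2 or 3 they numbered 8, 13 and 13, while the rises stayed between 9 and 11. Of the 33 called RNAs, 12 passed in each of these 6 fits (8 that rose and 4 that fell), 21 missed the threshold in at least 1, with adjusted p-values up to 0.173, and all 33 kept their sign. Without an intensity trend in limma's variance 8 rose and 5 fell. A lower level per cell and fewer cells with the RNA cannot be told apart in whole cultures. Because the arrays were scaled to a common mean, a direction here means one relative to the average transcript. Scaling to the hybridisation spikes instead lowers every difference by 0.50, and then 2 rose and 222 fell.

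The noncoding RNAs were dim, and the share that passed went up with signal. Their median signal was 68.0, against 193 for the other genes at 40 or above, and their median standard error was 0.17 against 0.12. Of 227 RNAs with a mean signal of 40 to 80, 2.2% passed, against 5.74% of 2142 other genes in that range. From 80 to 160 it was 7.14% of 98 against 12.1%, from 160 to 320 it was 25.0% of 48 against 18.6%, and from 320 up 34.6% of 26 against 25.4%. The difference between the RNAs and the other genes changed sign between the dimmer and the brighter ranges and was not tested.

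**Figure D1:**
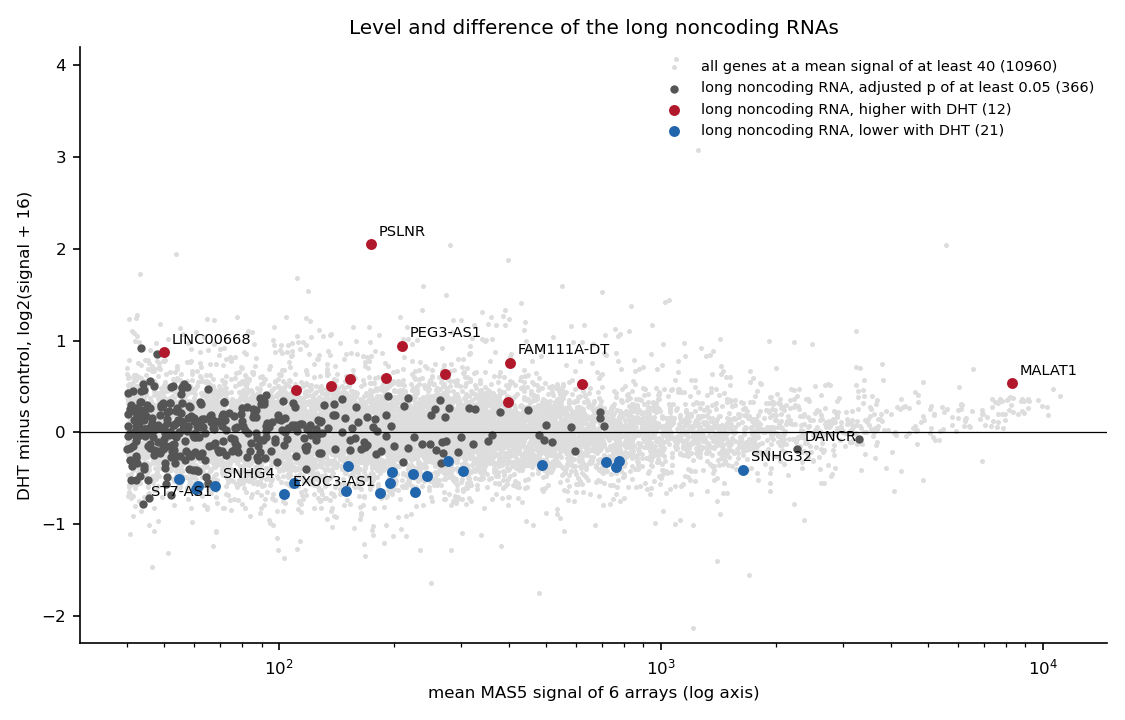
Each point is a gene at its mean MAS5 signal over 6 arrays (x, log axis) and its DHT minus control difference on the log2(signal + 16) scale (y). Light points are all genes at a mean signal of at least 40, dark points are long noncoding RNAs that did not pass, red ones those that rose (12) and blue ones those that fell (21); PSLNR stands highest at 2.05, and MALAT1 lies farthest right at a mean signal of 8285.

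**Figure D2:**
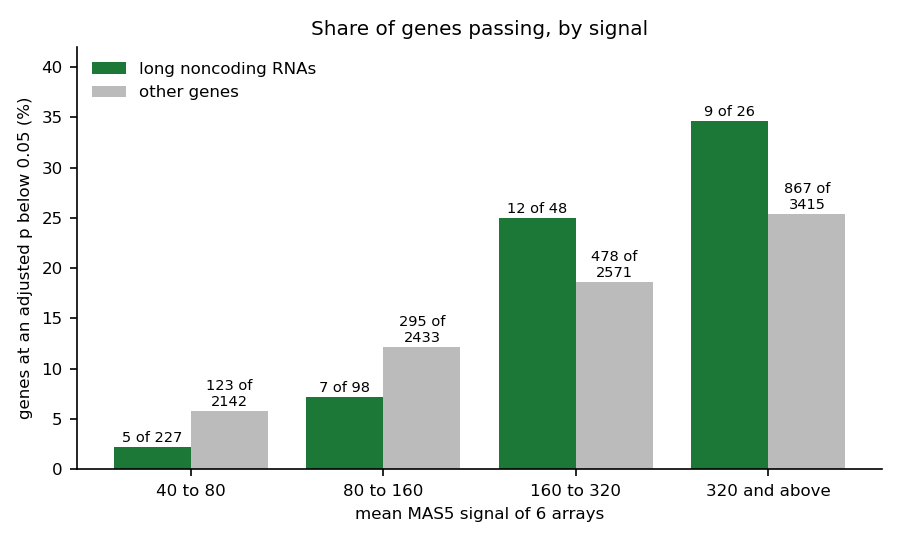
Bars give the percentage of genes at an adjusted p below 0.05 (y, from 0) in 4 ranges of mean MAS5 signal (x), for long noncoding RNAs (green) and other genes (grey), with the counts above. The green bars go from 2.2% to 34.6% and the grey ones from 5.74% to 25.4%.

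PSLNR had the largest difference of the set. Its signal was 47.0, 46.5 and 83.1 on the control arrays and 331, 249 and 286 on the DHT arrays. Control replicate 3 was the highest of the controls, and all DHT arrays lay well above it. The mean went from 58.8 ± 21.0 to 289 ± 41.1 (SD, n = 3 each), 4.91-fold, with a log2 fold change of 2.05 ± 0.18 (SE), which ran from 1.94 to 2.27 when each array was left out and was 1.55 with spike scaling.

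Among the antisense transcripts, 6 of 217 rose (2.76%) and 8 fell (3.69%). PEG3-AS1 lies opposite PEG3, a paternally expressed imprinted gene for a zinc finger protein, and gave 163, 128 and 124 in the controls and 262, 283 and 295 with DHT. The groups were apart by more than their spread, with a 2.02-fold rise (log2 0.95 ± 0.11, limma adjusted p = 0.000411). PEG3 itself went from 1695 ± 318 to 1737 ± 57.0 (log2 difference 0.05 ± 0.11, adjusted p = 0.824). DHRS4-AS1, opposite a gene for a short-chain dehydrogenase, rose from 236, 200.2 and 193 to 317, 355 and 326 (0.63 ± 0.10, limma adjusted p = 0.00193). CBR3-AS1, opposite a carbonyl reductase gene, rose from 153, 141 and 154 to 224, 239 and 234 (0.59 ± 0.09, limma adjusted p = 0.0022). In both RNAs the arrays of a group lay close together and the groups did not meet.

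FGD5-AS1 was the brightest antisense RNA that rose, with 502, 526 and 494 in the controls and 709, 765 and 740.3 with DHT. Its rise of 1.45-fold (log2 0.53 ± 0.07, limma adjusted p = 0.000889) had a standard error below that of most of the set, and the groups were far apart for their spread. KANSL1-AS1, opposite a subunit gene of a histone acetyltransferase complex, rose by 0.58 ± 0.14 (limma adjusted p = 0.023), and passed in 3 of the 6 fits without 1 array. FOXN3-AS1, opposite the gene of a forkhead repressor, rose by 0.51 ± 0.11 (limma adjusted p = 0.0122), and its 6 fits all passed. With spike scaling FGD5-AS1 stood at 0.02, CBR3-AS1 at 0.08, FOXN3-AS1 at 0.0020, DHRS4-AS1 at 0.13 and KANSL1-AS1 at 0.07, and none of them passed. Of the antisense RNAs that rose, only PEG3-AS1 passed there (0.44).

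The antisense RNAs that fell were led by EXOC3-AS1, next to the gene of an exocyst subunit. It read 138, 107 and 148 in the controls and 67.8, 82.8 and 75.7 with DHT. The lowest control array stood above the highest DHT array, and the difference on the log2 scale was -0.68 ± 0.14 (limma adjusted p = 0.0101), with an adjusted p of 0.0511 without control replicate 3. The gene EXOC3 itself read 89.4 ± 25.3 and 94.6 ± 17.9. LMNTD2-AS1 fell by 0.58 and RAB11B-AS1 by 0.51 (limma adjusted p = 0.0389 and 0.048), and both missed the threshold in all 6 fits without 1 array. SPEN-AS1, opposite the gene of the corepressor SPEN, fell by 0.47 (0.0261) and passed in 2 of them. The others that fell, named after their values were seen, were ATP2B1-AS1 (-0.44), SCAMP1-AS1 (-0.37), EPB41L4A-AS1 (-0.33) and ST8SIA6-AS1 (-0.31), and each passed in 1 or 2 of the 6 fits. ST8SIA6-AS1 was the brightest of all 217, at 909.6, 883 and 794 against 673, 717 and 687.

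Among the divergent transcripts, 1 of 68 rose (1.47%) and 3 fell (4.41%). FAM111A-DT went from 285, 297 and 299 to 460.0, 573 and 495, a 1.74-fold rise (log2 0.76 ± 0.09, limma adjusted p = 0.000459). Its second probe set gave 0.71 ± 0.14. ANKRD13C-DT fell from 277, 305 and 263 to 179, 171 and 170.1 (-0.65 ± 0.09, limma adjusted p = 0.00114), with DHT arrays that differed by less than 10 units of signal. A second probe set gave -0.87 ± 0.14. FAM86B2-DT fell from 189, 205 and 164 to 108, 107 and 125 (-0.64 ± 0.12, limma adjusted p = 0.00492), with -0.56 ± 0.15 on a second probe set. These 3 RNAs kept their call without any 1 array and on both probe sets.

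Of 95 LINC RNAs, 3 rose (3.16%) and 7 fell (7.37%). LINC00668 rose from 16.8, 32.2 and 42.2 to 56.6, 51.5 and 100.2 (0.88 ± 0.26, limma adjusted p = 0.0466). It was dim and uneven within both groups, and passed in 1 of the 6 fits without 1 array. Its control mean, 30.4, lay under the limit of 40, so it entered the set through its DHT arrays (mean 69.4), had to differ, and its p supports nothing. It was the one called RNA of this kind: 44 of the 399 had a mean under 40 in 1 group (26 in the controls, 18 with DHT), and among the other 355, 11 rose and 21 fell. LINC02987 and LINC00621, the latter on a probe set of the cross-hybridising _x_at kind, rose by 0.46 and 0.33 (0.0437 and 0.0264), each passed in 1 of these 6 fits, and with spike scaling they stood at -0.040 and -0.18. LINC00665 fell from 225, 249 and 212 to 158, 139.9 and 119 (-0.66 ± 0.12, limma adjusted p = 0.00414). LINC01144 fell by 0.62 and LINC01133 by 0.55 (0.0478 and 0.0202), with 1 and 4 of the 6 fits passing. LINC01144 owed its spread to the DHT arrays, at 33.8, 61.8 and 39.9 against 72.5 to 78.9 in the controls. The other 4 that fell, LINC01000 (-0.42), LINC01003 (-0.38), LINC00938 (-0.36) and LINC01278 (-0.32), were named after their values were seen and passed in 5, 3, 2 and 1 of these fits.

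**Figure D3:**
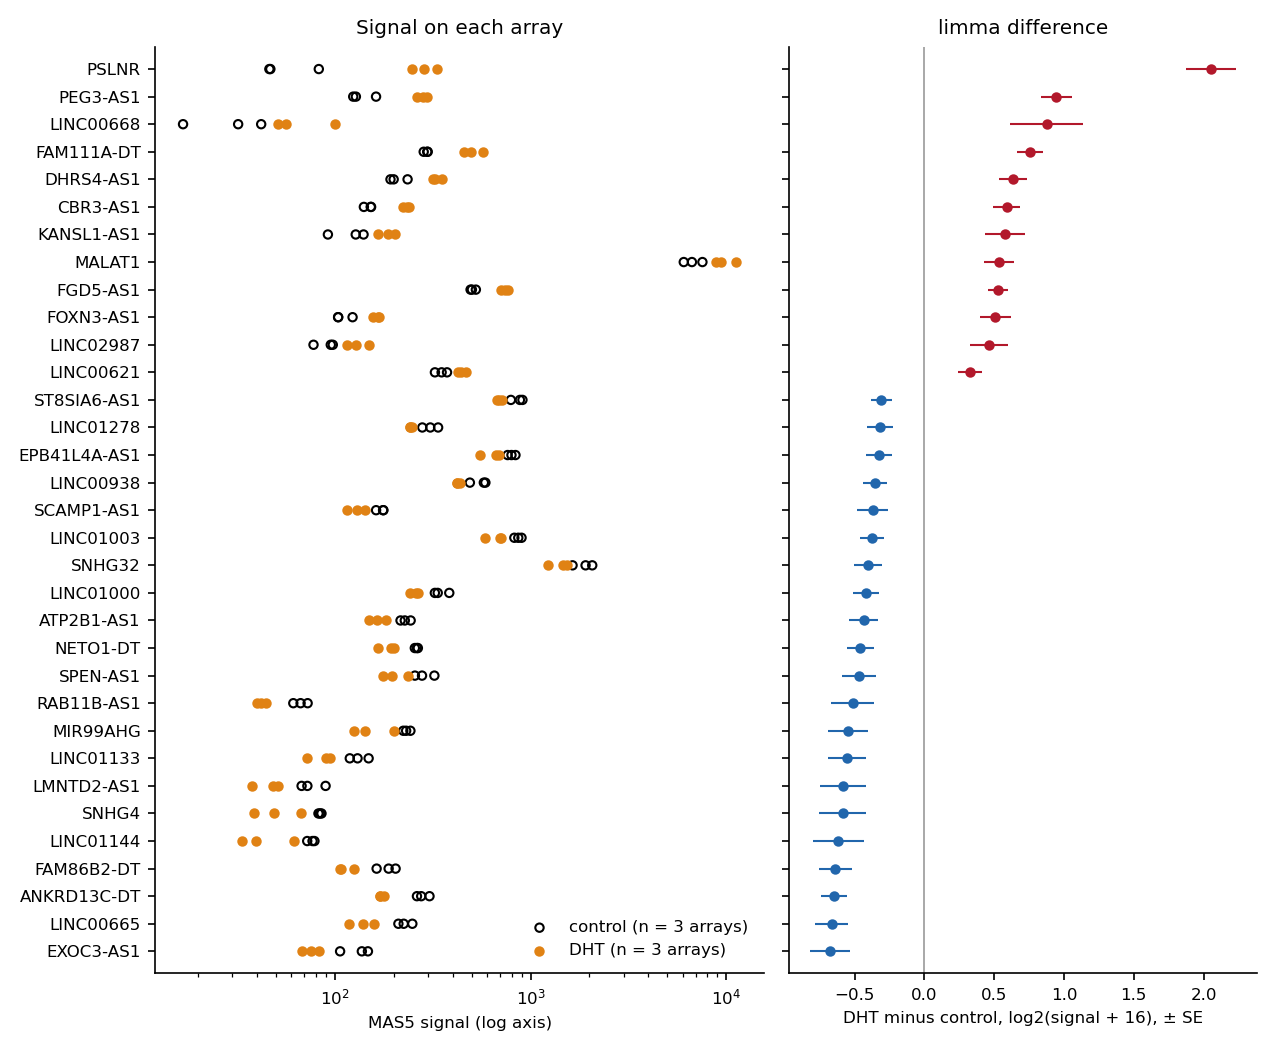
The 33 RNAs that passed are ordered by their difference. The left panel gives the MAS5 signal of each control (open) and DHT (orange) array on a log axis, and the right panel the DHT minus control difference on the log2(signal + 16) scale with limma's SE (red higher, blue lower, n = 3 arrays per group). In each row the 3 arrays of one group lie on one side of the 3 of the other.

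The snoRNA hosts differed among themselves. Of the 5, SNHG32 and SNHG4 fell, and these 2 were also the ones at an unadjusted p below 0.05. EPB41L4A-AS1, counted with the antisense RNAs, carries SNORA13 and fell as well (-0.33 ± 0.09, limma adjusted p = 0.037). SNHG32, which carries SNORD48 and SNORD52, read 1639, 1910.0 and 2066 in the controls and 1233, 1459.9 and 1534 with DHT. The groups did not overlap (log2 fold change -0.41 ± 0.10, limma adjusted p = 0.0244), and 2 of the 6 fits without 1 array passed. SNHG4, which carries SNORA74A and SNORA74D, fell from 84.3, 82.7 and 85.7 to 38.7, 67.1 and 49.3 (-0.59 ± 0.17, limma adjusted p = 0.0442), with 1 of the 6 fits passing. SNHG19, next to MALAT1 in brightness, read 3503, 3460.2 and 3198 against 2872, 3389 and 3388 (-0.08 ± 0.08, adjusted p = 0.618). SNHG17 (0.17 ± 0.10) and SNHG33 (0.27 ± 0.16) did not pass either. DANCR, next in brightness, read 2583, 2431 and 2219.8 against 2287, 2224 and 1854, and the groups overlapped (-0.19 ± 0.09, adjusted p = 0.234). The GAS5 probe set was dim for a transcript known to be abundant, at 44.3, 44.6 and 45.7 against 55.4, 71.8 and 69.4. Its arrays did not overlap, but the difference of 0.42 ± 0.16 did not pass (adjusted p = 0.114).

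Many snoRNA hosts start with a terminal oligopyrimidine tract, a C followed by a run of C and T that ties an RNA to growth signals in translation. A start of this kind (C and at least 4 pyrimidines, in capitals here) is found at 4.07% of the 35097 annotated starts. It was present at the annotated start of SNHG4, SNHG32 and SNHG19 and not at those of SNHG17, SNHG33, GAS5 or DANCR. Which starts these cells use was not measured, so whether the latter genes lack such a tract cannot be told. SNHG4 and SNHG32, which fell, share the tract with SNHG19, which did not pass. The start of EPB41L4A-AS1 was not examined. The stretches cover bases -10 to 20 on GRCh38.p14, at chr5:139274091-139274120 (plus strand), chr6:31834906-31834935 (plus strand), chr16:2155339-2155368 (minus strand) and chr20:38435309-38435338 (minus strand).
SNHG4 start: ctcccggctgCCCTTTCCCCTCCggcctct
SNHG32 start: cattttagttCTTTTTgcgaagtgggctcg
SNHG19 start: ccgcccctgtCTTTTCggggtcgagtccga
SNHG17 start: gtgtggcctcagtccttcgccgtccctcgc

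SNHG4 overlaps MATR3, the gene of a nuclear matrix protein that binds RNA. The probe set that names MATR3 alone went from 247 ± 49.2 to 88.0 ± 22.5 (log2 fold change -1.34 ± 0.17, limma adjusted p = 0.000594). The 9 probe sets annotated to both genes did not do the same. Of the 7 tested, 1 passed in limma over probe sets, the brightest, which was higher with DHT (0.38 ± 0.09, adjusted p = 0.0179), and the other differences lay between -0.22 and 0.09. The falls of SNHG4 and MATR3 were thus seen on the single-gene probe sets, 1 for each gene.

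Among 10 microRNA hosts 1 passed (10.0%), against 13.0% of all tested genes and 16.4% of those at a mean signal of 40 or above. MIR99AHG, from whose introns miR-99a, let-7c and miR-125b are cut, went from 224, 244 and 232 to 126, 144 and 201 (-0.55 ± 0.14, limma adjusted p = 0.0266). DHT replicate 3 stood close to the controls, and without it the difference was -0.73. Only that one of the 6 fits without 1 array passed. A second probe set gave -0.76 ± 0.15 (adjusted p over probe sets 0.00798) and another -0.24 ± 0.18. The array measures the host transcript and not the mature microRNAs, which are printed from RefSeq with the seed, bases 2 to 8, in capitals. The let-7c seed is that of let-7a and let-7b in MIRLET7BHG, whose signal was 79.2, 114 and 73.7 against 114, 105 and 129 (0.35 ± 0.16, adjusted p = 0.191).
miR-99a-5p: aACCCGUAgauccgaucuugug
let-7c-5p: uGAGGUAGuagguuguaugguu
miR-125b-5p: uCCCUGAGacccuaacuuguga
let-7a-5p: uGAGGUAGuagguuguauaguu
let-7b-5p: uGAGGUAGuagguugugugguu

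The remaining microRNA hosts had low signals and wide errors. MIR1915HG had the largest difference among them, from 71.4, 49.5 and 78.2 to 26.1, 64.8 and 22.4, with overlapping groups (-0.68 ± 0.27, adjusted p = 0.132). MIR200CHG, host of the epithelial microRNAs miR-200c and miR-141, read 77.0 ± 9.05 and 65.0 ± 13.0 (-0.21 ± 0.16). MIR31HG (0.22), MIR570HG (0.15), MIR550A3HG (0.13), MIR3936HG (0.03), MIR3945HG (-0.02) and MIR3681HG (-0.25) had adjusted p-values from 0.464 to 0.984.

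MALAT1, a long nuclear RNA of the speckles where splicing factors gather, had the highest mean signal of the set. It read 6056, 7541 and 6666 in the controls and 9406, 8839 and 11203 with DHT. The lowest DHT array was above the highest control, and the rise was 1.45-fold (log2 0.54 ± 0.11, limma adjusted p = 0.00723), with 0.24 under quantile normalisation and 0.03 with spike scaling. MALAT1 has 12 probe sets, all tested, and they did not move alike. Over probe sets 6 were higher (0.46 to 0.86) and 6 did not pass, of which 5 had negative differences (-0.02 to -0.30) and 1 a positive one (0.31). Averaged over the 12, the difference was 0.28 and missed the threshold (adjusted p = 0.145). The probe sets read different stretches of this long transcript, and which stretch each one reads was not used here.

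Other called RNAs also differed between probe sets. Of the 33, 18 had at least 1 further tested probe set. Of their 31 further probe sets 18 had the sign of the brightest, and all 9 that passed were among these 18. These counts include MALAT1, of whose 12 probe sets 6 passed as higher and 5 had negative differences, so that 1 gene weighs heavily in them. LINC00665 fell on its brightest probe set (mean signal 184), while a nearly as bright one (169) gave 0.14 ± 0.10, and the mean of its tested probe sets was -0.15. LINC01000 fell by 0.42 on a probe set of the _x_at kind, which can bind other transcripts, and its other probe set gave 0.62 ± 0.20. LINC01278 fell by 0.32 on one and stood at 0.38 ± 0.12 on the other. LINC00938 fell by 0.36 on the brightest and stood at 0.05 and 0.04 on the others. The dimmer probe sets of the antisense RNAs FOXN3-AS1, DHRS4-AS1 and KANSL1-AS1 stood at -0.23 ± 0.25, -0.13 ± 0.20 and 0.20 ± 0.30. When the probe sets of a gene were averaged, 12 RNAs rose and 13 fell in all, but 6 of the 12 rises were the same RNAs. Of the 18 called RNAs with further probe sets 13 then missed the threshold, FOXN3-AS1 (0.14), DHRS4-AS1 (0.25) and KANSL1-AS1 (0.39) among them.

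**Figure D4:**
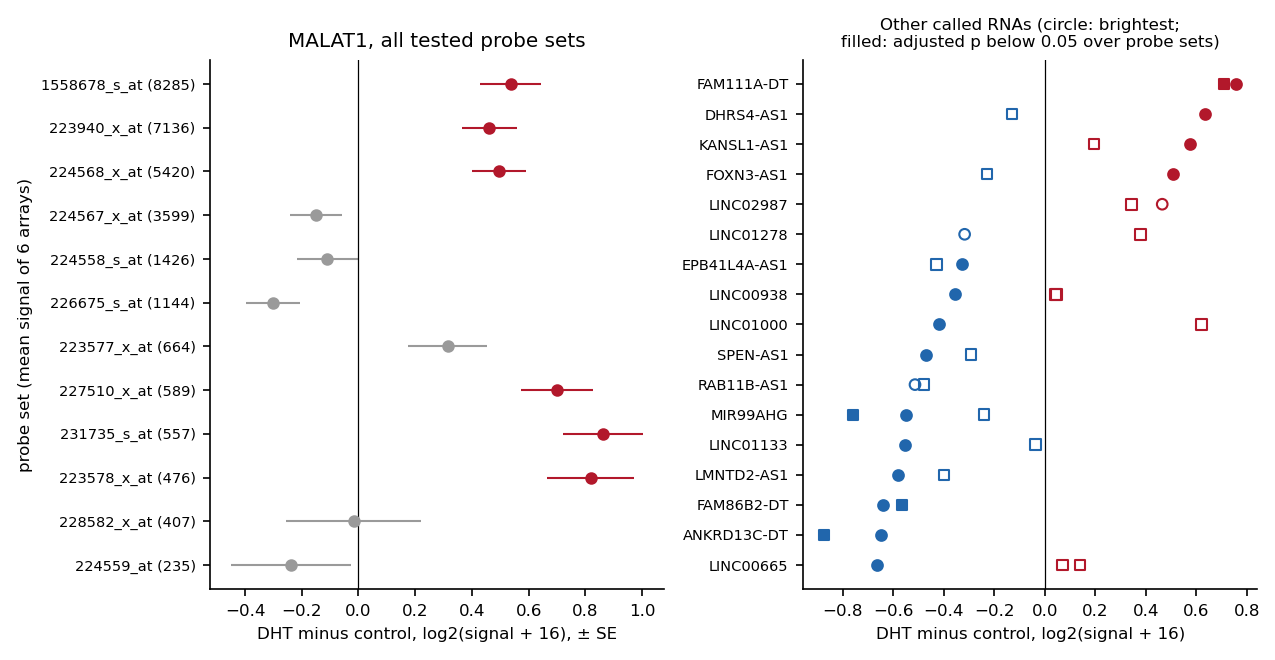
Points are probe sets at their DHT minus control difference on the log2(signal + 16) scale. On the left are all 12 MALAT1 probe sets with limma's SE, ordered by mean signal (in parentheses), red where the adjusted p over probe sets is below 0.05. On the right are the other called RNAs with more than 1 tested probe set (circle, the brightest; square, the others; red positive, blue negative; filled, adjusted p below 0.05). The 6 red MALAT1 points lie between 0.46 and 0.86 and the grey ones between -0.30 and 0.31.

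Among the members that did not pass, LINC01107 was highest. It went from 34.6, 40.05 and 6.3 to 71.3, 45.4 and 63.5 (0.92 ± 0.31, adjusted p = 0.0815). PIK3CD-AS1 (0.86 ± 0.26, adjusted p = 0.0549), IDI2-AS1 (0.56) and THAP7-AS1 (0.53) followed. On the other side were ST7-AS1 (-0.79 ± 0.25, adjusted p = 0.0619), LINC02941 (-0.72), MIR1915HG and ADCY6-DT (-0.56). All 8 had mean signals between 43.5 and 56.5, near the limit of 40. LINC01107, PIK3CD-AS1 and IDI2-AS1 had control means under 40 (27.0, 30.7 and 33.6), and ST7-AS1, LINC02941, MIR1915HG and ADCY6-DT had DHT means under it (29.0, 26.04, 37.8 and 37.7), so these 7 entered through the group where they were high and their sizes are a description. ATP6AP1-DT, the eighth in mean signal, read 742, 693 and 636 against 701, 753 and 723 (0.07 ± 0.08).

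In most pairs of an antisense or divergent RNA and the gene it is named after, neither changed detectably. Removing the suffix gave a partner for 285 members, and for 236 the partner was tested. Of these 236 pairs the RNA passed in 14 and the partner in 44 (18 higher and 26 lower, 18.6% of the partners). Over all tested genes 13.0% passed (7.02% higher and 6.03% lower), and 16.4% of those at a mean signal of 40 or above. Both passed in 4, the RNA alone in 10, the partner alone in 40 and neither in 182. The differences of RNA and partner had the same sign in 123 pairs (52.1%), and across the pairs, which share the 6 arrays and are not independent replicates, Pearson's r was 0.06 and Spearman's rho 0.03. For the 152 overlapping pairs r was 0.07, and for the 75 that lie within 1 kb 0.11.

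In 3 of the 4 pairs both members moved the same way. FAM111A, the gene of a protease that acts in DNA replication, read 1029, 1079 and 1082 in the controls and 1571, 1663 and 1756 with DHT. Its rise of 0.64 ± 0.07 on the log2 scale (limma adjusted p = 0.000257) stood beside the 0.76 of FAM111A-DT, which starts next to it. FAM111B, the nearest gene on the other side of FAM111A-DT, rose from 22.1 ± 16.5 to 60.3 ± 11.1 (1.11 ± 0.32, limma adjusted p = 0.0409). ATP2B1, a calcium pump of the plasma membrane, fell from 1024, 1183 and 1259 to 817, 836 and 931 (-0.41 ± 0.09, limma adjusted p = 0.0115), and ATP2B1-AS1 from 244, 217 and 228 to 183, 164 and 151. The RNA passed in 2 of the 6 fits without 1 array. RAB11B, a GTPase of recycling endosomes, fell from 292, 348 and 374 to 157, 117 and 115 (-1.29 ± 0.13, limma adjusted p = 0.000125). RAB11B-AS1, at 72.8, 67.0 and 61.5 against 44.4, 42.1 and 40.1, fell by 0.51.

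The pair of NETO1, an auxiliary subunit of glutamate receptors, went in opposite directions. NETO1-DT read 263, 257 and 266 in the controls and 193, 167 and 200.4 with DHT (-0.46 ± 0.10, limma adjusted p = 0.0101). NETO1, bright in these cells, read 2470.2, 2509 and 2637 against 2980.4, 3405 and 3320.2 (0.35 ± 0.08, limma adjusted p = 0.0115). In neither did the groups overlap. The annotated starts leave a gap of 400 bases between the genes. The count of pairs in which both passed was 95 with spike scaling, 2 with averaged probe sets or without an intensity trend, and 1 to 3 without 1 array.

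The 10 partners with the largest differences were ranked after their values were seen. RAB11B, described above, was the first, and RAB11B-AS1 was the one RNA of the 10 that passed. NEK2, a mitotic kinase, rose by 1.14, while NEK2-DT stood at 0.15. TMPO, a gene of nuclear envelope proteins, rose by 1.09 and TMPO-AS1 stood at 0.45 without passing. ARHGEF26 rose by 0.99 and DSG2, a desmosomal cadherin, by 0.92, with ARHGEF26-AS1 at -0.30 and DSG2-AS1 at -0.39. RBPMS fell by 0.99, NAV2 by 0.93 and PTOV1 by 0.88, with RBPMS-AS1 at 0.04, NAV2-AS4 at 0.09 and PTOV1-AS1 at 0.07. SPAG5, a protein of the mitotic spindle, rose by 0.98 and OIP5, of the centromere, by 0.85, with SPAG5-AS1 at 0.07 and OIP5-AS1 at 0.22. The RNAs that did not pass thus stood between -0.39 and 0.45, and without TMPO-AS1 up to 0.22. That range also holds called RNAs such as SCAMP1-AS1 (-0.37) and ST8SIA6-AS1 (-0.31). Whether RNA and partner differ in response was not tested.

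**Figure D5:**
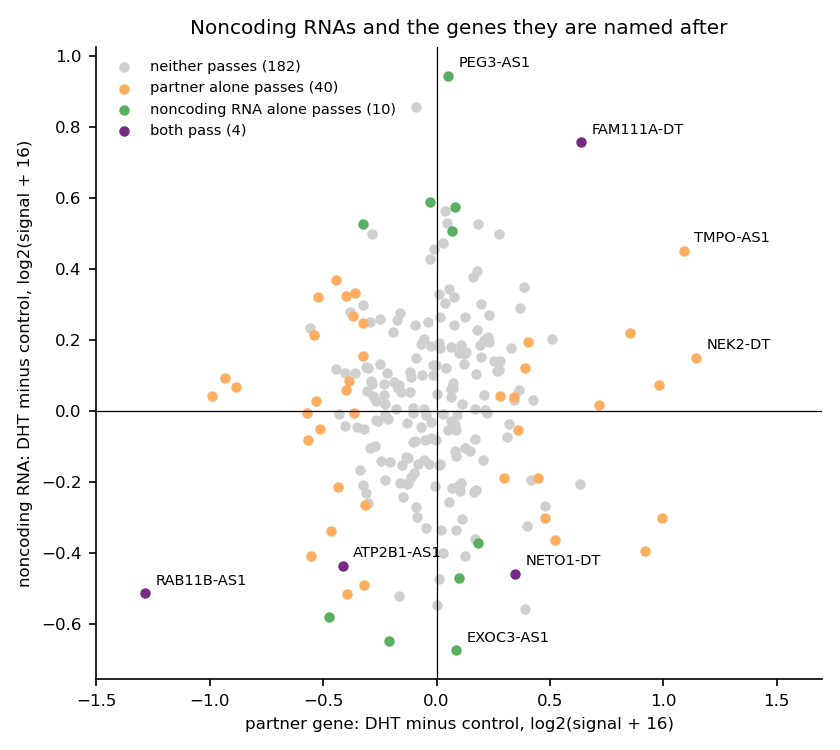
Each of 236 points is a pair, with the partner gene's DHT minus control difference on the log2(signal + 16) scale on the x axis and that of its antisense or divergent RNA on the y axis. Colours give which of the 2 passed (purple, both, 4; orange, the partner alone, 40; green, the RNA alone, 10; grey, neither, 182), and the cloud has no visible slope.

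Other named long noncoding RNAs that the symbols do not catch were counted from a list. Of 60 listed, 29 were tested, without a limit on the mean signal beyond the filter on dim probe sets. Of these 4 rose (13.8%) and 2 fell (6.9%), 20.7% together, against 13.0% over all genes and 8.27% of the 399 RNAs, and their median difference was 0.03 against 0.02 over all genes. PCGEM1, a prostate-specific transcript, rose from 43.3 ± 3.84 to 71.5 ± 10.7 (0.56 ± 0.16, limma adjusted p = 0.0439). TP53TG1 rose by 0.56, TUG1 by 0.33 and NORAD, which binds Pumilio proteins, by 0.25 (0.00401, 0.0445 and 0.0417). CRNDE fell by 0.44 and ZFAS1, itself a snoRNA host, by 0.38 (0.00853 and 0.0104). The other 23 lay between -0.61 (PCAT19) and 0.79 (MIAT).

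Proteins that work with these RNAs were counted from 4 further lists, to be read against the 13.0% of all genes that passed. Of 14 tested core proteins of small nucleolar RNPs, NHP2 rose (0.33 ± 0.08, limma adjusted p = 0.0264) and the other 13 did not pass (7.14% called). Of 14 nonsense-mediated decay factors, ETF1, a translation release factor, rose by 0.38 and RBM8A, of the exon junction complex, fell by 0.35 (0.0211 and 0.0122; 14.3% called). Of 18 paraspeckle proteins, TAF15, DAZAP1 and CPSF6 fell by 0.64, 0.41 and 0.34 (0.00185, 0.00877 and 0.0151; 16.7% called). Of 18 nuclear speckle proteins, RNPS1 rose by 0.28, and ACIN1, SRSF11 and SRSF5 fell by 0.51, 0.40 and 0.35 (0.0203, 0.0315, 0.00612 and 0.00731; 22.2% called). The medians of the 4 lists were 0.01, -0.01, -0.06 and -0.13, against 0.02 over all genes.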

How the data were processed

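Total RNA of 6 LNCaP cultures (3 control, 3 with 100 nM DHT for 48 h) was hybridised to 1-colour Affymetrix arrays. The deposited values are linear probe set intensities, which the authors computed by MAS5 (per the submitters' processing notes), a method that is noisy at low signal. The trimmed means were already equal, so no normalisation was added, and a change in total RNA cannot be seen. Of 54675 probe sets 62 are controls, 41091 name 1 gene, 1801 several and 11777 are unnamed here. No build is named for the array annotation, and coordinates and sequences are RefSeq's (GRCh38.p14), matched by symbol. Probe sets in the lowest 40% of mean log2(signal + 16) were left out (at a signal of 17.3), which keeps all 399 members. Differences were tested on log2(signal + 16), which understates those of dim genes, with limma 3.58.1 in R 4.3.3 (lmFit, eBayes with an intensity trend, 4 residual degrees of freedom) and Benjamini-Hochberg adjustment over 14269 genes, or over probe sets where stated. With the variance pooled over probe sets the median degrees of freedom were 11.4. The fit was tested on simulated data with changes of 2-fold or more in brighter probe sets. Smaller changes, such as those of all called RNAs but PSLNR, were not simulated. Python 3.11.15 and pandas 2.3.3 made the tables.

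Members, lists, markers and tests were chosen with earlier results of these data known. The text names, of the members that passed, the 12 with the largest rise and the 12 with the largest fall. It also names the 8 brightest members, all SNHG and MIR host members and the 5 genes named in the symbol rule. Further named were the 4 largest differences in each direction that did not pass and the 3 genes nearest to the limit on each side. From the list of other noncoding RNAs it names those that passed and the lowest and highest that did not. All 29 tested genes of that list were to be named, but the rest are not printed. From each other list up to 4 genes that passed are named. A protein-coding gene put into the list of other noncoding RNAs by mistake was removed after its value was seen; it had not passed.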

Additional observations from a re-analysis of the deposited data

How the results depend on the processing

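The called RNAs kept their sign in all settings but those named here, while whether they passed varied. Of the 33 called RNAs, 4 passed in every alternative (PSLNR, PEG3-AS1, ANKRD13C-DT and FAM86B2-DT), and 7 when spike scaling is set aside (with FGD5-AS1, FAM111A-DT and CBR3-AS1). PSLNR, counted in both, was in the rule with its rise already known. Rises numbered 12, and 2 with spike scaling; without 1 array they ran from 9 to 11. Falls numbered 21, and 12 without a filter on dim probe sets, 222 with spike scaling, 5 without an intensity trend and 13 with averaged probe sets; without 1 array they ran from 8 to 13. Over all genes 1861 passed, and 8349 with spike scaling (1.45% of them higher, against 53.8%), 664 without an intensity trend, and 1177 to 1439 without 1 array. With equal array medians 44.7% of 1447 calls were higher. Among the 33 called RNAs, LINC00621 (-0.18) and LINC02987 (-0.040) changed sign with spike scaling. LINC01000 did so with averaged probe sets (0.10) and with _x_at probe sets set aside (0.62), and LINC01278 with averaged probe sets (0.031). RNAs that were not called are not listed, apart from ATP6AP1-DT, which stood at -0.43 and passed with spike scaling. Many of those changed sign and passed there too: 222 RNAs passed as lower, while 187 had a negative difference in the main fit. The cause was not tested, except that spike scaling subtracts a constant of 0.50 and fits without 1 array have fewer samples. Among all 399, 10 signs changed with quantile normalisation, 26 with equal medians and 197 with spike scaling. A limit of 20 or 80 on the mean signal in place of 40 gave 15 and 11 rises and 24 and 17 falls. Same-numbered control and DHT arrays did not deviate together (r = -0.01, -0.03 and -0.001 over probe sets), so no shift shared by number was seen. Whether same-numbered cultures were handled together is not in the labels and cannot be told from these values. With the replicate number as a block 13 RNAs rose and 15 fell, and 1729 genes passed. The pairs in which both passed were recounted in these settings after the data were seen. Dimmer RNAs had larger errors: at a mean signal of 40 to 80 the median standard error was 0.19, against 0.09 from 320 up; other genes at 40 to 80 had 0.18. The part of signal over background in the share that passed was not tested.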
